A study of Homo sapiens with 6 samples.

Results

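AP-1 is a family of paired transcription factors built from FOS and JUN proteins. Several of its genes, FOS and JUN among them, belong to the immediate early genes, which cells switch on within minutes of a stimulus without first making new protein. The members followed here by their symbols were FOS, FOSB, FOSL1 and FOSL2 (the FOS proteins), JUN, JUNB and JUND (the JUN proteins), ATF3 and EGR1 (stress- and growth-induced transcription factors) and IER3 (a short-lived survival and stress response protein). A probe set was taken as a member when the platform annotation gave it exactly 1 gene symbol and that symbol was one of these. The rule gave 10 genes of 18244 measured and 37 probe sets of 49293 tested.

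FOS proteins cannot pair with each other and bind DNA as partners of a JUN protein, whereas JUN proteins can also pair among themselves. The pairs bind the motif TGAGTCA or, with ATF and CREB proteins, TGACGTCA. Growth factor and stress kinases raise these genes through serum response factor with its ETS-family partners, through CREB and ATF proteins, and through AP-1 itself. In lung epithelium and lung carcinoma cells the family is known for induction by growth factors, smoke and inflammatory signals.

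Total RNA was measured in A549 cells, an established line from a human lung adenocarcinoma, on 1-colour Affymetrix arrays, with 3 arrays labelled shTIGD1 and 3 labelled shControl. The shTIGD1 cells received a lentivirus with a short hairpin RNA against TIGD1, a gene derived from a transposase, and the shControl cells one with a negative control hairpin named shNC. All 6 arrays thus come from cells given a hairpin lentivirus, in medium with serum, and each arm rests on a single hairpin sequence. The labels do not say whether the replicates were separate cultures, so p-values measure the spread between these arrays, which may be technical. The hairpin target sequences are shown because every difference below is a difference between cells carrying one or the other.
shTIGD1: ctgctaacacaacatccat
shNC: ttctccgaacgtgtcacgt

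The targeted gene itself was not measured as lower. TIGD1 had log2 signals of 6.88, 6.84 and 6.86 in the arrays labelled shTIGD1, against 6.96, 6.93 and 6.85 in those labelled shControl, and the groups overlapped. The difference was -0.06 (SE 0.04, 95% interval -0.16 to 0.04, adjusted p = 0.389), so the groups are called by their labels throughout. Array medians lay between 6.27 and 6.28. Markers of A549 cells and simple epithelium, 11 of 12 measured, had list means of 12.60 to 12.63 in shTIGD1 arrays and 12.46 to 12.48 in shControl arrays (2 higher, 1 lower). Immune markers (9 of 10 measured, 0 higher, 1 lower) had list means of 4.66 to 4.68 and 4.67 to 4.75, with single markers from 2.81 to 8.21. Endothelial markers (6 of 6 measured, 0 higher, 0 lower) averaged 4.71 to 4.76 and 4.82 to 4.85. Fibroblast markers (7 of 7 measured, 0 higher, 1 lower) averaged 4.61 to 4.65 and 4.62 to 4.76. In bulk RNA, fewer cells of a type and less RNA per cell cannot be told apart.

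Promoter sequence was available for 8 of the 10 members. The RefSeq promoter table, on GRCh38.p14, held no entry for FOSL1 and IER3 and held 2 for ATF3. The 4 stretches below, each the 250 bases before the annotated start on the gene's own strand, are shown because FOS, JUN and part of the ATF3 probe sets were higher in shTIGD1 arrays and JUNB was lower. Capitals mark a match to TGACGT in FOS and to TGACATCA in JUN and in the ATF3 window shown. JUNB held no match to any motif searched, and neither did the window of the other ATF3 entry, which is not shown.
FOS, chr14:75278578-75278827, plus strand: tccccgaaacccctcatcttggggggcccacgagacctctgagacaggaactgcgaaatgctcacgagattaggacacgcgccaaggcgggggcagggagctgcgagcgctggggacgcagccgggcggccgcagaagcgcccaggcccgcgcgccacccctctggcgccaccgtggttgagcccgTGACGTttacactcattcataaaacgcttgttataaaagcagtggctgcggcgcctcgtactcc
JUN, chr1:58784048-58784297, minus strand: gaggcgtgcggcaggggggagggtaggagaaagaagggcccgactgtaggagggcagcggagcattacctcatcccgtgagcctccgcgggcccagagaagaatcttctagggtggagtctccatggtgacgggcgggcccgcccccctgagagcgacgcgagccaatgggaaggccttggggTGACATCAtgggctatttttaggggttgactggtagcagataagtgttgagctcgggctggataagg
ATF3 upstream start, chr1:212565157-212565406, plus strand: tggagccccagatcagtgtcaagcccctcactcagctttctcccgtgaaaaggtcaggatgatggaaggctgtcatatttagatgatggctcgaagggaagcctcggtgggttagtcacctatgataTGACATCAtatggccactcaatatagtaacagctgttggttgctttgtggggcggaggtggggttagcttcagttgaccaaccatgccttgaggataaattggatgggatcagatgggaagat
JUNB, chr19:12791236-12791485, plus strand: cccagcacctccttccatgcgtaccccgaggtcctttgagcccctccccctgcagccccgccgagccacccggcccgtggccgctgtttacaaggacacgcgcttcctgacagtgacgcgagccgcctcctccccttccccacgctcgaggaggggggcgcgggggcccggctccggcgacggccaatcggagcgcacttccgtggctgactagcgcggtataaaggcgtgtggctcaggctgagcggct

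Motifs were searched on both strands in these windows and in the same windows of all 35116 promoters of the table, and distances run from the annotated start to the far end of a match. TGACGT, the core shared with the longer cyclic AMP response element TGACGTCA, occurred in 7.10% of all promoters. It lay 64 bases before the start in FOS, 60 in FOSB and 66 in FOSL2, and EGR1 held it on the minus strand 136 and 67 bases before its start. TGACGTCA, which contains that core on both strands, occurred in 1.65% of all promoters and lay 200 bases before the start of JUND, where a further minus-strand core lay 87 bases before it. TGACATCA, a variant known from the JUN promoter as bound by JUN with ATF2, occurred in 2.38% of all promoters, 67 bases before the start of JUN and 123 before the upstream start of ATF3. The CArG box, the site of serum response factor, occurred in 1.16% of all promoters and in EGR1 at 105 and 83 bases before the start. TGAGTCA (4.20% of all promoters) and the EGR site GCGTGGGCG (0.72%) were in no member window. These matches describe the letters of the windows only, and sites outside the windows, such as farther upstream, were not searched.

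FOS and JUN were higher, and JUNB and IER3 lower, in the arrays labelled shTIGD1. The other 6 genes did not pass the threshold of an adjusted p of 0.05 when each gene was represented by its brightest probe set. Of all 18244 genes, 4340 passed, which is 23.8% (1789 higher, 9.81%, and 2551 lower, 14.0%), so 4 calls among 10 genes stand against a background in which calls were common. The 3 values of each group did not overlap in 8 of the 10 members, against 42.3% of all genes. By probe set, 13 of the 37 were higher and 4 lower on the deposited scale, against 11.5% and 10.6% of all probe sets (22.0% in either direction), and 26 did not overlap, against 40.9%. The 13 were 4 each of FOS, JUN and ATF3 and 1 of FOSL2, and the 4 were 1 each of FOSL1, FOSL2, JUNB and IER3. Probe sets of 1 gene share a target and are not replicates, so these counts do not show a rise across the family. The median log2 change was 0.00 over the 10 members and -0.04 over all genes, and the median absolute change was 0.14 and 0.10. Over probe sets the medians were 0.07 for members and -0.02 for all, with median absolute changes of 0.14 and 0.10.

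**Figure D1:**
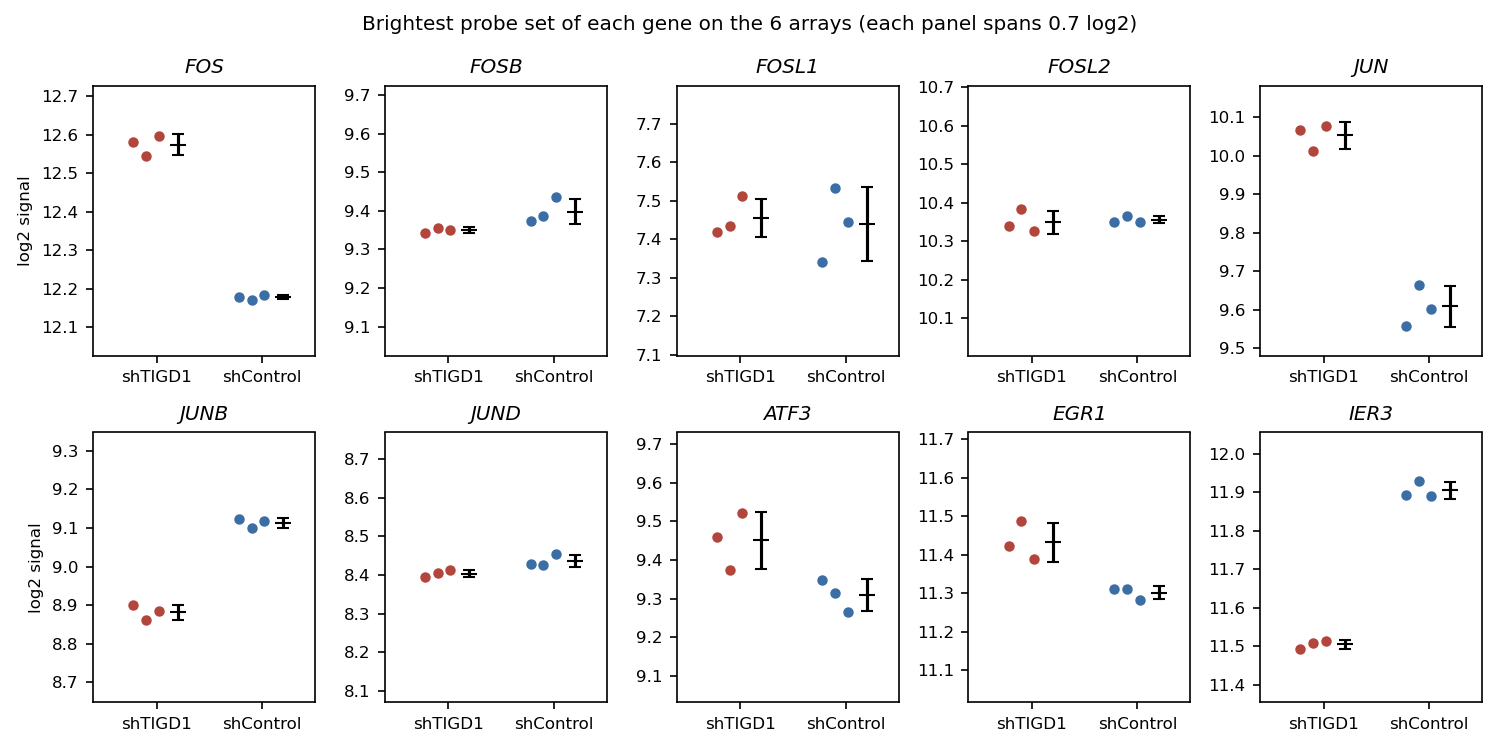
Log2 signal of the brightest probe set of each of the 10 genes on each of the 6 arrays, with shTIGD1 arrays left of shControl arrays and bars for the mean ± SD of each group (n = 3). FOS and JUN points lie higher in shTIGD1 arrays and JUNB and IER3 points lower, with changes of 0.40, 0.44, -0.23 and -0.40.

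FOS, the founding AP-1 subunit and one of the fastest genes to respond to serum, rose. Its brightest probe set read 12.58, 12.54 and 12.60 in shTIGD1 arrays, against 12.18, 12.17 and 12.18 in shControl arrays. All shTIGD1 arrays were above all shControl arrays, and the gap was many times the spread within either group. Averages of 12.57 ± 0.03 in shTIGD1 arrays and 12.18 ± 0.01 in shControl arrays (SD, n = 3 each) gave a difference of 0.40 (SE 0.03, 95% interval 0.32 to 0.47), or 1.32-fold, with an adjusted p of 0.000908. All 4 FOS probe sets rose, by 0.37 to 0.45, and in none did the groups overlap. FOS lay at percentile 97.6 of the changes of all genes.

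FOSB, a close relative that is induced with FOS, read 9.34, 9.36 and 9.35 in shTIGD1 arrays and 9.37, 9.39 and 9.44 in shControl arrays. The groups did not overlap, but the difference of -0.05 (95% interval -0.13 to 0.03) did not pass (adjusted p = 0.348). Its second probe set differed by 0.00, with the shTIGD1 values inside the range of the shControl values. The 95% interval of the brightest probe set covers only changes smaller than the rise measured for FOS.

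FOSL1, which encodes FRA1, a subunit known for invasive carcinoma cells and RAS signalling, showed no change that passed at the gene level. Its brightest probe set read 7.42, 7.44 and 7.51 in shTIGD1 arrays and 7.34, 7.53 and 7.44 in shControl arrays, with the groups intermingled (difference 0.02, 95% interval -0.12 to 0.15, adjusted p = 0.874). Its 6 probe sets ran from -0.19 to 0.14. The single call among them was a fall in probe set 11760573_a_at, which read 6.20, 6.10 and 6.28 in shTIGD1 arrays, against 6.39, 6.39 and 6.38 in shControl arrays (difference -0.19, SE 0.05, adjusted p over all probe sets 0.0457). That call was lost in 5 of the 6 fits that left out 1 array, with adjusted p between 0.0373 and 0.110. Among these fits it held only without shTIGD1 replicate 3. With all arrays kept, it was also lost under limma's eBayes with trend and robust (adjusted p 0.0560) and array weights (adjusted p 0.0512).

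FOSL2, which encodes FRA2, gave probe sets that disagreed. The brightest read 10.34, 10.38 and 10.33 in shTIGD1 arrays and 10.35, 10.37 and 10.35 in shControl arrays, a difference of -0.01 (95% interval -0.09 to 0.07, adjusted p = 0.914). Of the 5, 3 differed by -0.03 to 0.03 and did not pass. Probe set 11731599_a_at fell, with 8.72, 8.64 and 8.64 in shTIGD1 arrays, against 8.86, 8.94 and 8.86 in shControl arrays (difference -0.22, adjusted p 0.0158). Probe set 11731600_a_at rose, with 7.29, 7.08 and 7.28 in shTIGD1 arrays, against 6.85, 6.97 and 7.00 in shControl arrays (difference 0.27, adjusted p 0.0384). The groups did not overlap in either, and the directions were opposite, so no single direction can be given for FOSL2. The fall did not pass without shTIGD1 replicate 2 (0.0539) or replicate 3 (0.0574), and the rise passed in 1 of the 6 fits without an array, the one without shTIGD1 replicate 2 (adjusted p 0.0220 to 0.115 over the 6).

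**Figure D2:**
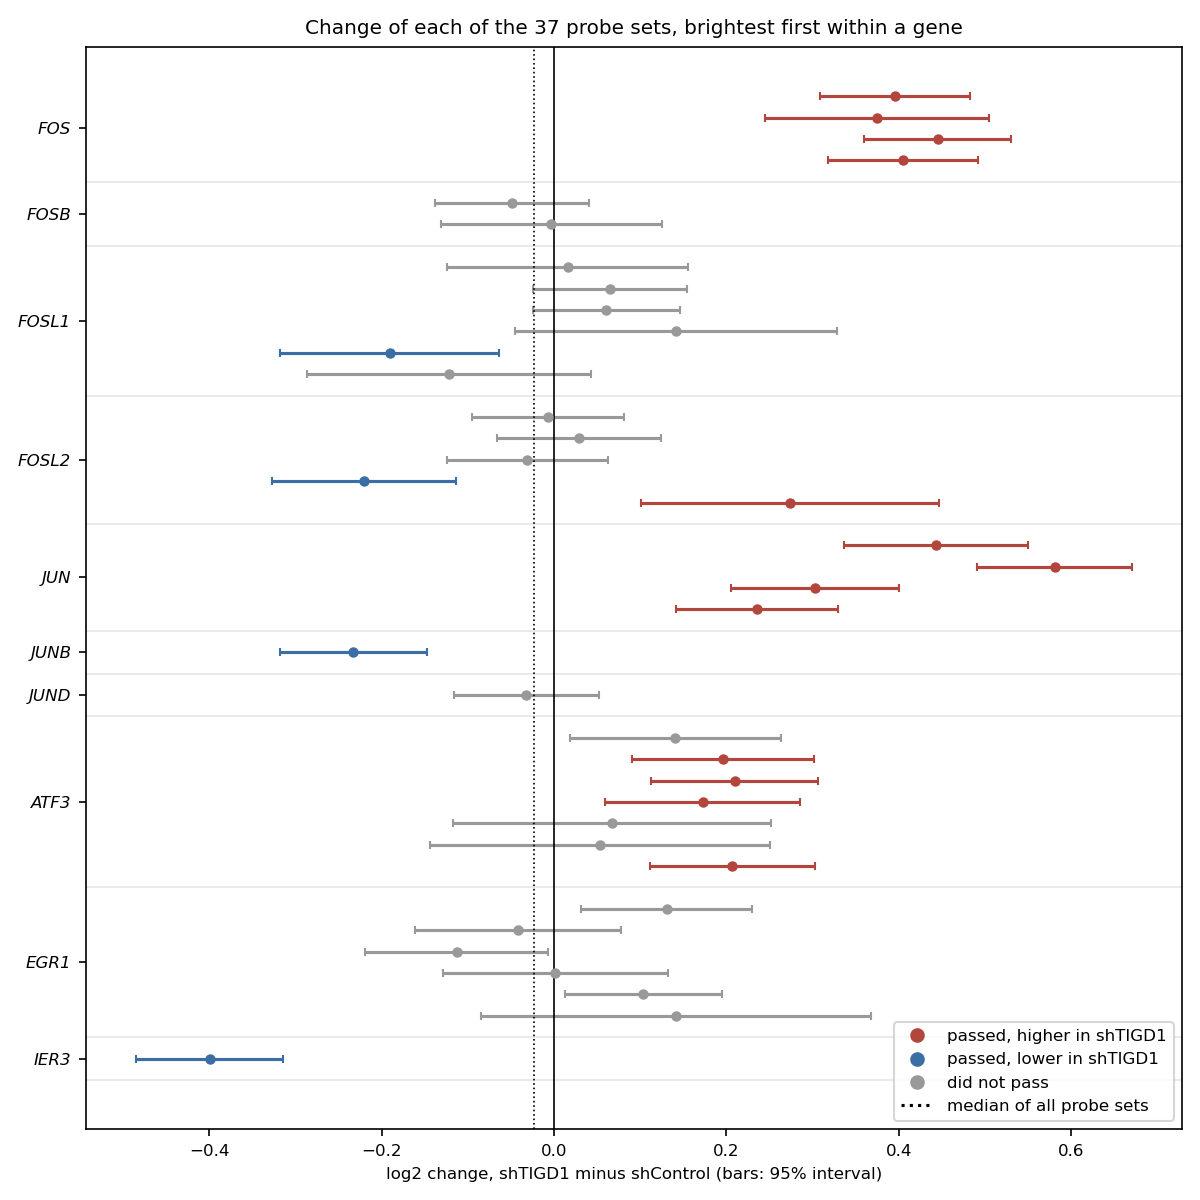
Log2 change (shTIGD1 minus shControl) of each of the 37 member probe sets, grouped by gene, with its 95% interval, and a dotted line at the median of all probe sets (-0.02). All 4 FOS and all 4 JUN probe sets lie to the right of 0, whereas the FOSL1, FOSL2 and EGR1 probe sets lie on both sides of it.

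JUN, a substrate of JNK and one of the JUN proteins with which FOS proteins pair to bind DNA, also rose. It read 10.07, 10.01 and 10.08 in shTIGD1 arrays, against 9.56, 9.67 and 9.60 in shControl arrays. The groups were well apart, at 10.05 ± 0.04 in shTIGD1 arrays and 9.61 ± 0.05 in shControl arrays (mean ± SD, n = 3 each). The difference was 0.44 (SE 0.04, 95% interval 0.34 to 0.54), or 1.36-fold, with an adjusted p of 0.00136, and lay at percentile 98.3 of all genes. All 4 JUN probe sets rose, but by unequal amounts. Probe set 11718397_s_at read 9.86, 9.90 and 9.88 in shTIGD1 arrays, against 9.27, 9.30 and 9.33 in shControl arrays (0.58, 95% interval 0.49 to 0.67), while the others rose by 0.44, 0.30 and 0.24. The interval of the smallest, 0.14 to 0.33, does not reach that of the largest.

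JUNB, which can oppose JUN at some AP-1 targets, fell. Its 1 probe set read 8.90, 8.86 and 8.89 in shTIGD1 arrays, against 9.12, 9.10 and 9.12 in shControl arrays, with no overlap. Averages of 8.88 ± 0.02 in shTIGD1 arrays and 9.11 ± 0.01 in shControl arrays (SD, n = 3 each) gave a difference of -0.23 (SE 0.03, 95% interval -0.31 to -0.16), 1.17-fold lower, with an adjusted p of 0.00425. JUND, the most constant member of the family in many cells, read 8.39, 8.40 and 8.41 in shTIGD1 arrays and 8.43, 8.42 and 8.45 in shControl arrays. Those groups did not overlap, yet the difference of -0.03 (95% interval -0.11 to 0.04, adjusted p = 0.508) did not pass. The probe sets of JUNB and JUND both carry the suffix _x_at, which marks probes that may also hybridize to other transcripts.

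ATF3, a stress-induced factor that pairs with JUN proteins, lay slightly higher without passing at the gene level. Its brightest probe set read 9.46, 9.37 and 9.52 in shTIGD1 arrays and 9.35, 9.32 and 9.27 in shControl arrays, with no overlap (difference 0.14, SE 0.05, 95% interval 0.02 to 0.26, adjusted p = 0.0859). All 7 ATF3 probe sets had differences above 0, between 0.05 and 0.21, and 4 of them rose past the threshold over all probe sets. The steadiest, 11753631_a_at, read 7.53, 7.54 and 7.53 in shTIGD1 arrays, against 7.32, 7.37 and 7.27 in shControl arrays, a difference of 0.21 (adjusted p 0.0136), and passed in all 6 fits without an array. The 3 others that passed had adjusted p of 0.0137, 0.0225 and 0.0431. Probe set 11763463_a_at lost its call without shTIGD1 replicate 1 (0.0531). Of the fits without an array, 11753632_x_at passed only without shControl replicate 2 (range 0.0334 to 0.0792). Likewise 11719343_x_at passed only without shControl replicate 3 (0.0332 to 0.129). With all arrays kept, 11719343_x_at was also lost under quantile normalization (0.0541) and limma's eBayes with trend and robust (0.0514). At the gene level ATF3 passed with the mean of all its probe sets (0.15, adjusted p 0.0222) and with the second brightest (0.20, adjusted p 0.0263). Its brightest probe set passed with genes of a mean log2 signal under 5 or under 6 left out of the test (adjusted p 0.0462 and 0.0312). It also passed under limma's eBayes with trend and robust (adjusted p 0.0105), but in none of the 6 fits without an array (0.0544 to 0.214). The filters and eBayes with trend and robust also called more of all genes (5216, 5300 and 5802, against 4340).

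EGR1, a zinc finger factor driven by serum response factor, did not pass either. Its brightest probe set read 11.42, 11.49 and 11.39 in shTIGD1 arrays and 11.31, 11.31 and 11.28 in shControl arrays, with no overlap (difference 0.13, SE 0.04, 95% interval 0.04 to 0.22, adjusted p = 0.0523). None of the 6 EGR1 probe sets passed limma's test after adjustment, and 3 had an unadjusted p below 0.05. They ran from -0.11 to 0.14, and probe set 11717860_a_at pointed down, with 10.16, 10.08 and 10.18 in shTIGD1 arrays and 10.29, 10.24 and 10.22 in shControl arrays (adjusted p 0.122). With dim genes removed from the test, at a mean log2 signal under 5, the brightest probe set passed (adjusted p 0.0234). It also passed under limma's eBayes with trend and robust (adjusted p 0.000886), but in none of the 6 fits without an array (0.0678 to 0.130). Over probe sets, 11717860_a_at passed as lower under eBayes with trend and robust (-0.11, adjusted p 0.0143). It did so too with signals under 6 left out (adjusted p 0.0420). Probe set 11717861_a_at passed as higher with signals under 5 or 6 left out (adjusted p 0.0429 and 0.0280). No single direction can thus be given for EGR1. The mean of all EGR1 probe sets differed by 0.04 (adjusted p 0.470) and the second brightest by -0.04 (adjusted p 0.621), and neither passed.

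IER3, a stress-inducible regulator of cell survival linked to NF-kappa B and ERK signalling, had the largest fall of the 10 genes. Its 1 probe set read 11.49, 11.51 and 11.51 in shTIGD1 arrays, against 11.89, 11.93 and 11.89 in shControl arrays. The groups were far apart, with SDs of 0.01 and 0.02 (n = 3 each). The difference was -0.40 (SE 0.03, 95% interval -0.48 to -0.32), 1.32-fold lower, with an adjusted p of 0.000844, at percentile 1.39 of all genes. The suffix _s_at of its probe set marks probes that can be shared by several transcripts. Among the probe sets that rose, FOS 11749852_s_at and 11734658_s_at and JUN 11718397_s_at and 11718395_s_at carry it too. JUN 11718396_x_at and ATF3 11753632_x_at and 11719343_x_at carry _x_at. The brightest probe sets of FOS and JUN carry neither suffix.

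The calls for FOS, JUN, JUNB and IER3 held in all 6 fits without an array. None of the 10 genes passed when limma tested for a change beyond 1.2-fold, where 3 had an unadjusted p below 0.05. Probe set 11718397_s_at of JUN was the 1 of 37 that passed that test.

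Some of these directions depended on how the arrays were scaled, and spiked controls read lower in shTIGD1 arrays. The hybridization controls averaged 10.25 in shTIGD1 arrays and 10.46 in shControl arrays, a difference of -0.21 over 14 probe sets. The poly-A controls, added to the RNA before labelling, averaged 6.81 and 7.15, a difference of -0.33 over 24 probe sets. Setting the arrays level on these moved the median change of all genes to 0.17 and 0.30 and the share of calls that were higher to 96.0% and 99.2%, against 41.2% as deposited. Of all 18244 genes, 9096 passed with hybridization controls and 14073 with poly-A controls. Member genes called came to 8 higher and 1 lower with hybridization controls, and to 8 higher and 0 lower with poly-A controls. Of all 49293 probe sets, 25250 and 38417 passed. Member probe sets called came to 31 higher and 1 lower, and to 33 higher and 0 lower. On these scales nearly all calls, among all genes as among the members, were thus higher in shTIGD1 arrays. FOS then differed by 0.60 and 0.73 and JUN by 0.65 and 0.78. JUNB differed by -0.02 (adjusted p 0.593) with hybridization controls and by 0.10 (adjusted p 0.130) with poly-A controls, so its direction turned with poly-A controls. IER3 stayed below 0, at -0.19 (adjusted p 0.00580) and -0.07 (adjusted p 0.259). FOSB, FOSL2 and JUND turned from below 0 to above it under both scalings. Relative to the median of all genes, the deposited values put FOS at 0.43, JUN at 0.48, ATF3 at 0.18, EGR1 at 0.17, JUNB at -0.20 and IER3 at -0.36.

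**Figure D3:**
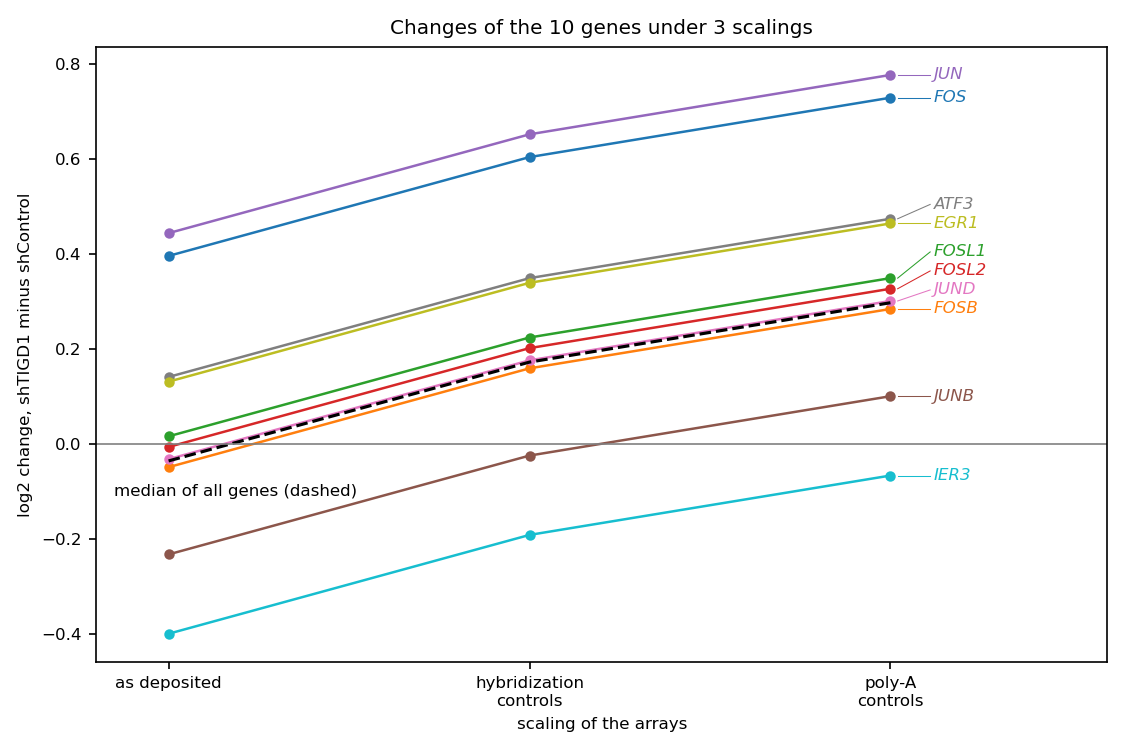
Log2 change (shTIGD1 minus shControl) of the 10 genes as deposited and after scaling on hybridization and on poly-A controls, beside the median of all genes. The median of all genes moves from -0.04 to 0.17 and 0.30. FOS and JUN lie above it and JUNB and IER3 below it as deposited. Each control scaling shifts all genes of an array by the same amount, so distances from the median cannot change.

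The array also carries 23 background probe sets of random sequence, with 3 to 25 G or C among their 25 bases. The 11 with 15 or more G or C read lower in shTIGD1 arrays without overlap, by -0.23 to -0.06, and the brightest of these read 10.79 in shTIGD1 arrays and 11.02 in shControl arrays. The 12 with fewer differed by -0.05 to 0.00, and 3 did not overlap. The base composition of the member probes was not analysed here, and the part of this in the falls of JUNB and IER3 was not tested.

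Genes around the 10 members were read from 4 lists of textbook roles. Among partners and modulators of AP-1, 20 of 22 were measured, 3 rose and 2 fell (25% called, median change -0.03) on the deposited scale, against 10 higher and 0 lower with hybridization controls and 16 higher and 0 lower with poly-A controls. Without shTIGD1 replicate 1, shTIGD1 replicate 2 or shControl replicate 3, 3 genes of this list passed. With signals under 6 left out, 8 of 16 passed (3 higher, 5 lower). With eBayes with trend and robust, 8 of 20 passed (3 higher, 5 lower). JDP2, a repressor that pairs with JUN, fell, with 8.09, 7.95 and 8.08 in shTIGD1 arrays, against 8.45, 8.39 and 8.30 in shControl arrays (-0.34, adjusted p 0.00843). That call was lost when arrays were scaled on hybridization controls (-0.14, adjusted p 0.105) or poly-A controls (-0.01, adjusted p 0.871). ATF7, a relative of ATF2, rose by 0.33 in its brightest probe set (9.19 ± 0.01 in shTIGD1 arrays, 8.86 ± 0.04 in shControl arrays, adjusted p 0.00218), but its second brightest differed by -0.19 and 1 of its 5 probe sets passed as lower. NFE2L1, a cap'n'collar factor, fell by 0.15 (adjusted p 0.0255), and all 6 of its probe sets passed as lower, but the gene's call held only without shControl replicate 2 among the fits without an array (adjusted p 0.0436 to 0.0751). Its direction turned with hybridization controls (0.06, adjusted p 0.284) and poly-A controls (0.18, adjusted p 0.0214). BACH2, a repressor of the same family, differed by 0.28 (adjusted p 0.0136) at signals of 3.71 in shTIGD1 arrays and 3.44 in shControl arrays, in the range of the immune markers above. Its second brightest probe set differed by -0.20 (adjusted p 0.274) and the mean of its probe sets by 0.04 (adjusted p 0.716), so the direction turned with the probe set.

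Among other immediate early genes, 32 of 34 were measured, 6 rose and 6 fell (37.5% called, median change -0.03) on the deposited scale, against 19 higher and 1 lower with hybridization controls and 26 higher and 1 lower with poly-A controls. Without shControl replicate 3, 7 of them passed. KLF4 and KLF2, Krüppel-like factors, rose by 0.36 and 0.35, with 8.77 ± 0.04 and 9.36 ± 0.04 in shTIGD1 arrays, against 8.42 ± 0.03 and 9.01 ± 0.03 in shControl arrays (adjusted p 0.00202 and 0.00205). DUSP1, the phosphatase that turns off MAP kinases, rose by 0.22, with 12.26 ± 0.04 in shTIGD1 arrays and 12.04 ± 0.04 in shControl arrays (adjusted p 0.0110). NAB1, a corepressor of EGR factors, fell by 0.55, with 9.71 ± 0.02 in shTIGD1 arrays and 10.26 ± 0.08 in shControl arrays (adjusted p 0.00100).

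Among the kinases and factors upstream, 26 of 29 were measured, 4 rose and 6 fell (38.5% called, median change 0.00) on the deposited scale, against 17 higher and 1 lower with hybridization controls and 23 higher and 1 lower with poly-A controls. Without shTIGD1 replicate 3 or shControl replicate 2, 6 of them passed. ETS2, an ETS-family factor, rose, with 9.72, 9.69 and 9.77 in shTIGD1 arrays, against 9.13, 9.09 and 9.00 in shControl arrays (0.65, adjusted p 0.000636). MAP2K3, an activator of p38, fell by 0.56, with 7.91 ± 0.03 in shTIGD1 arrays and 8.47 ± 0.01 in shControl arrays (adjusted p 0.000371). RPS6KA1, which encodes the ERK-activated kinase RSK1, fell by 0.30 (adjusted p 0.00709), but differed by -0.09 with hybridization controls (adjusted p 0.187) and by 0.03 with poly-A controls (adjusted p 0.563). RPS6KA5, which encodes MSK1, a kinase of chromatin at immediate early genes, rose by 0.42 in its brightest probe set (adjusted p 0.00264) and differed by 0.02 in its second brightest.

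Among genes known as AP-1 targets, 26 of 30 were measured, 3 rose and 5 fell (30.8% called, median change -0.02) on the deposited scale, against 17 higher and 5 lower with hybridization controls and 21 higher and 2 lower with poly-A controls. IL6 and CXCL8, an inflammatory cytokine and chemokine, fell by 0.80 and 0.48, with 7.94 ± 0.07 and 12.67 ± 0.07 in shTIGD1 arrays, against 8.74 ± 0.03 and 13.15 ± 0.04 in shControl arrays (adjusted p 0.000337 and 0.00153). With poly-A controls the difference of CXCL8 was -0.15 and did not pass (adjusted p 0.0887). FST, which encodes the activin antagonist follistatin, rose by 0.56, with 8.72 ± 0.05 in shTIGD1 arrays and 8.16 ± 0.05 in shControl arrays (adjusted p 0.000731). MMP1, a collagenase and the classical AP-1 target, rose by 1.12, at signals as low as those of markers of other cell types, with 4.73 ± 0.08 in shTIGD1 arrays and 3.61 ± 0.18 in shControl arrays (adjusted p 0.00104). With signals under 6 left out, 13 of 21 targets passed (4 higher, 9 lower). With eBayes with trend and robust, 14 of 26 passed (5 higher, 9 lower). The shares called in the 4 lists are descriptions and stand against 23.8% of all genes. Of all genes, 9096 and 14073 of 18244 passed with hybridization and poly-A controls. With signals under 6 left out, 5300 of 10758 passed, and with trend and robust 5802 of 18244.

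**Figure D4:**
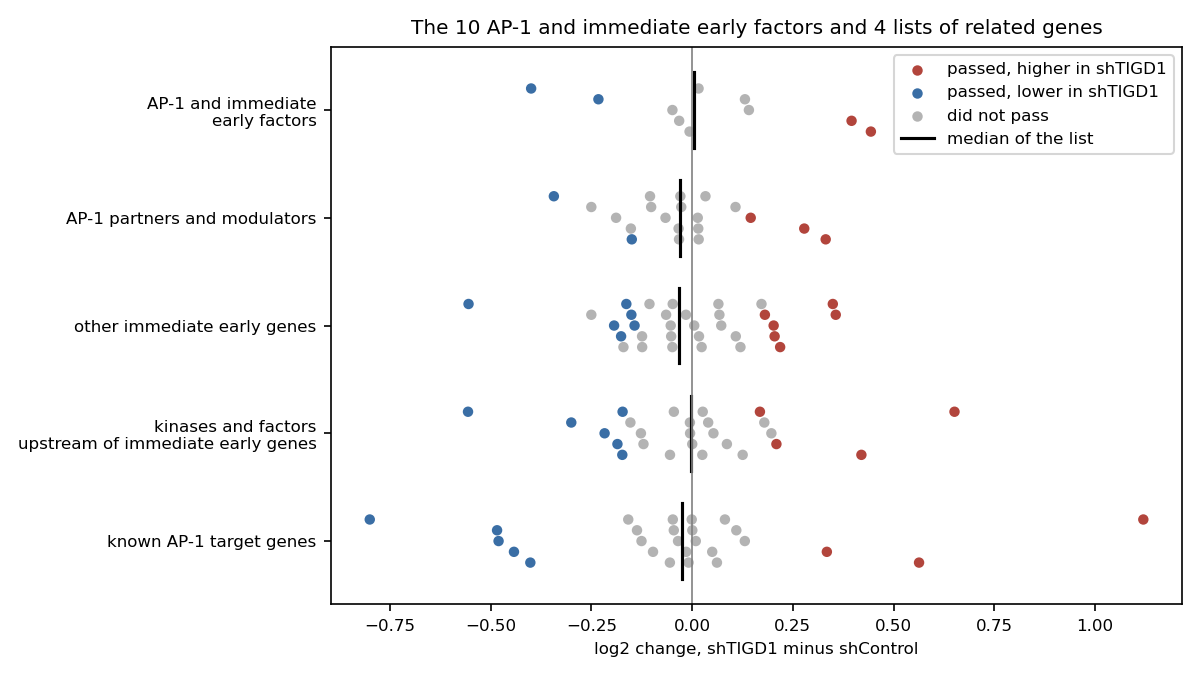
Log2 change (shTIGD1 minus shControl) of every measured gene of the 4 lists and of the 10 members, with genes past the threshold marked. On the deposited scale each group has called genes on both sides of 0, which the control scalings shift toward higher, and MMP1 at 1.12 and IL6 at -0.80 are the extremes.

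Some genes followed the profile of the most raised and most lowered member over the 6 arrays. Likeness was taken as the root mean square difference between profiles centred on their own means, over 10757 genes with a mean log2 signal of at least 6. The closest to JUN were RPS6KA5 (0.018, change 0.42), RABL2A (0.018, change 0.43) and PMS1 (0.021, change 0.45). The closest to IER3 were MIS18A (0.015, change -0.42), KCNN4 (0.016, change -0.38) and DNAJC7 (0.019, change -0.36). These distances describe 6 points each, in which the difference between the groups makes up most of the profile.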

How the data were processed

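RNA of 6 A549 samples was hybridized to 1-colour Affymetrix arrays. The authors deposited log2 signals for each probe set and array. GCOS and RMA are named, per the submitters' processing notes, with versions not given in the sources. The base of the logarithm is nowhere stated, and base 2 was inferred from values spanning 2.38 to 14.8. RMA corrects background, equalises array distributions and summarises probes, which removes any shift common to most genes. Probe-level data and scan dates were not analysed here, and the number of arrays limits precision.

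Of 49395 probe sets, 102 controls were left out. Of the rest, 45278 had 1 gene symbol, 1333 several and 2682 none, and no gene was named from a probe set with several. Each gene was read from its brightest probe set by the mean of all arrays (18244 genes). The 3 shTIGD1 and 3 shControl arrays were compared in R 4.3.3 by limma 3.58.1 (lmFit, eBayes), two-sided, with p-values adjusted by Benjamini and Hochberg across the genes or, for probe sets, across all 49293, at a threshold of 0.05. Intervals are 95%. Tables were made with pandas 2.3.3 under Python 3.11.15, and the fit was tested on simulated data. Alternatives were other probe set rules, control scalings, quantile normalization, filters on dim probe sets, eBayes with trend, array weights, a replicate block, treat at 1.2-fold and leaving out each array.

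The members, the 4 lists and the rules were chosen with earlier results of these data known. Named were all members, TIGD1, up to 4 genes per list with the largest absolute change past the threshold, and 3 genes nearest in profile to the most raised and most lowered member.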

Additional observations from a re-analysis of the deposited data

How the results depend on the processing

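All alternatives were listed with the design. Of the alternative values of the member genes, 146 of 180 kept direction and side of the threshold, as did 473 of 590 for probe sets and 255 of 284 for named list genes. Genes called (4340) became 9096 when scaled on hybridization controls and 14073 on poly-A controls, 2391 with a replicate block, 262 with treat and 2741 to 3386 without 1 array. Probe sets called (10867) became 25250, 38417, 6462, 756 and 6676 to 8628. Member genes called (4) became 9, 8 and, with treat, 0. They became 6 (4 higher, 2 lower) with either filter on dim signals and with eBayes with trend and robust. Of all genes, 5216 of 12776 and 5300 of 10758 then passed with the filters, and 5802 of 18244 with trend and robust. Member genes called became 5 (3 higher, 2 lower) with the mean of all probe sets or the second brightest. For all genes these gave 4742 and 3537 calls. Otherwise the member count stayed at 4. Member probe sets called (17) became 32, 33, 10 with the block, 1 with treat and 12 to 14 without 1 array. Under the other alternatives that count ranged from 16 to 20. For all probe sets the calls then ranged from 10994 to 14577, with fewer tested under the filters (32253 and 26244). Deviations from the group means did not correlate positively between arrays of the same replicate number (-0.03, -0.13 and -0.09). The labels do not say whether same-numbered arrays were handled together, and these correlations alone do not settle it. Under the block the calls of FOS (adjusted p 0.0159), JUN (0.0188), JUNB (0.0326) and IER3 (0.0158) held. Calls lost were those of DUSP1 (0.0515), NFE2L1 (0.0779), the 4 ATF3 probe sets (0.0507 to 0.108) and the FOSL1 probe set (0.0914). Both FOSL2 probe sets lost theirs too (0.0604 and 0.0811).

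Directions turned as follows, with hybridization then poly-A scaling: TIGD1 0.15 and 0.28, FOSB 0.16 and 0.28 (second probe set 0.20 and 0.33), FOSL2 0.20 and 0.33 (probe set 11763171_at 0.18 and 0.30), JUND 0.18 and 0.30, FOSL1 probe sets 11760573_a_at 0.017 and 0.14 and 11760284_a_at 0.086 and 0.21, EGR1 probe sets 11752940_a_at 0.17 and 0.29 and 11717860_a_at 0.10 and 0.22, and NFE2L1 0.058 and 0.18. With poly-A scaling alone, JUNB came to 0.10, FOSL2 probe set 11731599_a_at to 0.11 and RPS6KA1 to 0.033. The mean of all probe sets gave -0.0049 for FOSL1, 0.0090 for FOSL2 and -0.0049 for ATF7, and the second brightest gave 0.029 for FOSL2, -0.042 for EGR1, -0.19 for ATF7 and -0.20 for BACH2. Quantile normalization gave -0.0090 for EGR1 probe set 11717862_x_at. Without 1 array, sign changed within the range for FOSL1 (-0.033 to 0.062), FOSL2 (-0.023 to 0.0050), FOSB probe set 11717344_x_at (-0.045 to 0.047), ATF3 probe sets 11742243_a_at (-0.0017 to 0.12) and 11719342_a_at (-0.034 to 0.13) and EGR1 probe set 11717862_x_at (-0.036 to 0.054). Signals of MMP1 and BACH2 lay near those of markers of other cell types, which limits their changes. Apart from what each alternative's construction shows, the cause was not tested.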
